A study of Mus musculus with 12 samples.

Results

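The genes described are 37 members of the interferon, RNA sensing and MHC class I machinery, chosen by gene symbol from a table of 24100 genes. They comprise 7 RNA sensors and their partners (Ddx58, Ifih1, Dhx58, Mavs, Eif2ak2, Adar and Trim25), 6 regulators of transcription (Irf1, Irf3, Irf7, Irf9, Stat2 and Nlrc5), 14 interferon-induced genes (Oasl2, Oas1a, Ifit1, Ifit2, Ifit3, Isg15, Usp18, Bst2, Rsad2, Mx1, Ifi35, Ifi27, Ifi44 and Parp14), 4 genes of the MHC class I complex (H2-D1, H2-K1, H2-T10 and B2m) and 6 genes that prepare peptides for it (Tap1, Tap2, Tapbp, Psmb8, Psmb9 and Psmb10). All 37 were in the table, with at least 1 count in at least 1 library. Expression was measured by RNA-seq in primary mouse entorhinal cortex (EC) neuron cultures transduced with adeno-associated viruses (AAVs), to ask how a lower or higher level of Dek, a chromatin-associated nuclear protein, changes their transcriptome.

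The cultures came from embryonic day 17 C57Bl/6J embryos, were transduced after 7 days in vitro with 1e+10 viral genomes per ml, and gave RNA 4 days later. There were 4 groups of 3 libraries. Dek silencing cultures received a virus with a Dek hairpin under the U6 promoter (AAV1-mCherry-U6-mDEK-shRNA), and scrambled cultures its control with a scrambled hairpin (AAV1-mCherry-U6-scrmb-shRNA). Dek overexpression cultures received Dek cDNA under the neuronal hSyn1 promoter (AAV1-hSyn1-mDEK-IRES-mCherry), and empty vector cultures its control (AAV1-hSyn1-mCherry-WPRE). All groups therefore carried an AAV and mCherry, and the hairpin viruses differ from the others in promoter and vector as well as in the hairpin. The Dek hairpin had a single sequence, so loss of Dek and other effects of that sequence cannot be told apart. The labels do not say whether the 3 libraries of a group came from separate dissections, so the p-values below measure the spread between these libraries. In such bulk samples, fewer cells of a type and less RNA per cell cannot be told apart.

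Vertebrate cells detect unusual RNA in the cytoplasm with helicases such as RIG-I and MDA5 and with the kinase PKR, and pass the signal through the adaptor MAVS to interferon regulatory factors. Secreted interferon then acts through STAT2 and IRF9, which take part in binding the interferon-stimulated response element of many antiviral genes. MHC class I molecules display peptides, cut by the proteasome and carried by the TAP transporter, to CD8 T cells, and are normally kept low in neurons.

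Promoter sequences of the members show where such an element lies, and are given here because this element is the one known to answer to interferon. RefSeq promoters of build GRCm38.p6, from 250 bases before to 50 bases after the annotated start, were matched for 29 of the 37 members (none for H2-T10, Mx1, Nlrc5, Ifi27, Tap2, Parp14, Dhx58 and Usp18). The core of the element was searched as GAAANNGAAA on both strands, with overlapping matches counted. It was found in 11 of the 29 members (37.93%) and in 1079 of all 27025 genes with a promoter (3.99%). The following stretches, 5′ to 3′ on the strand of the gene, carry the match in capitals (read as TTTCNNTTTC where it lies on the opposite strand).
Ddx58 (chr4:40239804-40239833, minus strand): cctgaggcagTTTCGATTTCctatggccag
Ifih1 (chr2:62646206-62646233, minus strand): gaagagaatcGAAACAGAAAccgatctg
Eif2ak2 (chr17:78882535-78882564, minus strand): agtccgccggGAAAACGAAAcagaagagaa
Stat2 (chr10:128270266-128270295, plus strand): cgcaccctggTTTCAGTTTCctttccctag
B2m (chr2:122147538-122147567, plus strand): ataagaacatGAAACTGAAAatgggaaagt
Rsad2 (chr12:26456553-26456582, minus strand): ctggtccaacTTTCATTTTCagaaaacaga
Bst2 (chr8:71537577-71537612, minus strand): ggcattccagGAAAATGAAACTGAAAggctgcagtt
Isg15 (chr4:156200865-156200906, minus strand): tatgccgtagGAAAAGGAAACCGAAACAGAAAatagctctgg
Ifit1 (chr19:34640775-34640823, plus strand): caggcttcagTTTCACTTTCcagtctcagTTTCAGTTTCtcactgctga
Ifit3 (chr19:34583363-34583426, plus strand): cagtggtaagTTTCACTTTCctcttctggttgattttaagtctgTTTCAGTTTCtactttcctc
Oas1a (chr5:120907520-120907555, minus strand): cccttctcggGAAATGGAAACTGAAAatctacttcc
Bst2, Ifit1, Ifit3, Isg15 and Oas1a held more than 1 match, with 3 in Isg15. A match describes letters, and whether a factor bound there was not measured.

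The 12 libraries held between 15679567 and 18933382 estimated counts, and levels are given as CPM (counts divided by library size, with sizes normalised by the TMM method over all libraries). The Dek transcript followed the labels. It had 7.98, 6.64 and 8.61 CPM in Dek silencing libraries, against 35.2, 36.6 and 36.3 CPM in scrambled libraries. In Dek overexpression libraries it had 156, 129 and 143 CPM, against 36.0, 38.8 and 41.1 CPM in empty vector libraries. Summed CPM of 6 pan-neuronal markers lay between 5589 and 6931 in all libraries, and the 8 astrocyte markers summed to between 434 and 849, so the cultures labelled as neurons also held astrocyte transcripts. The 9 endothelial markers summed to at most 3.46 CPM.

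**Figure D1:**
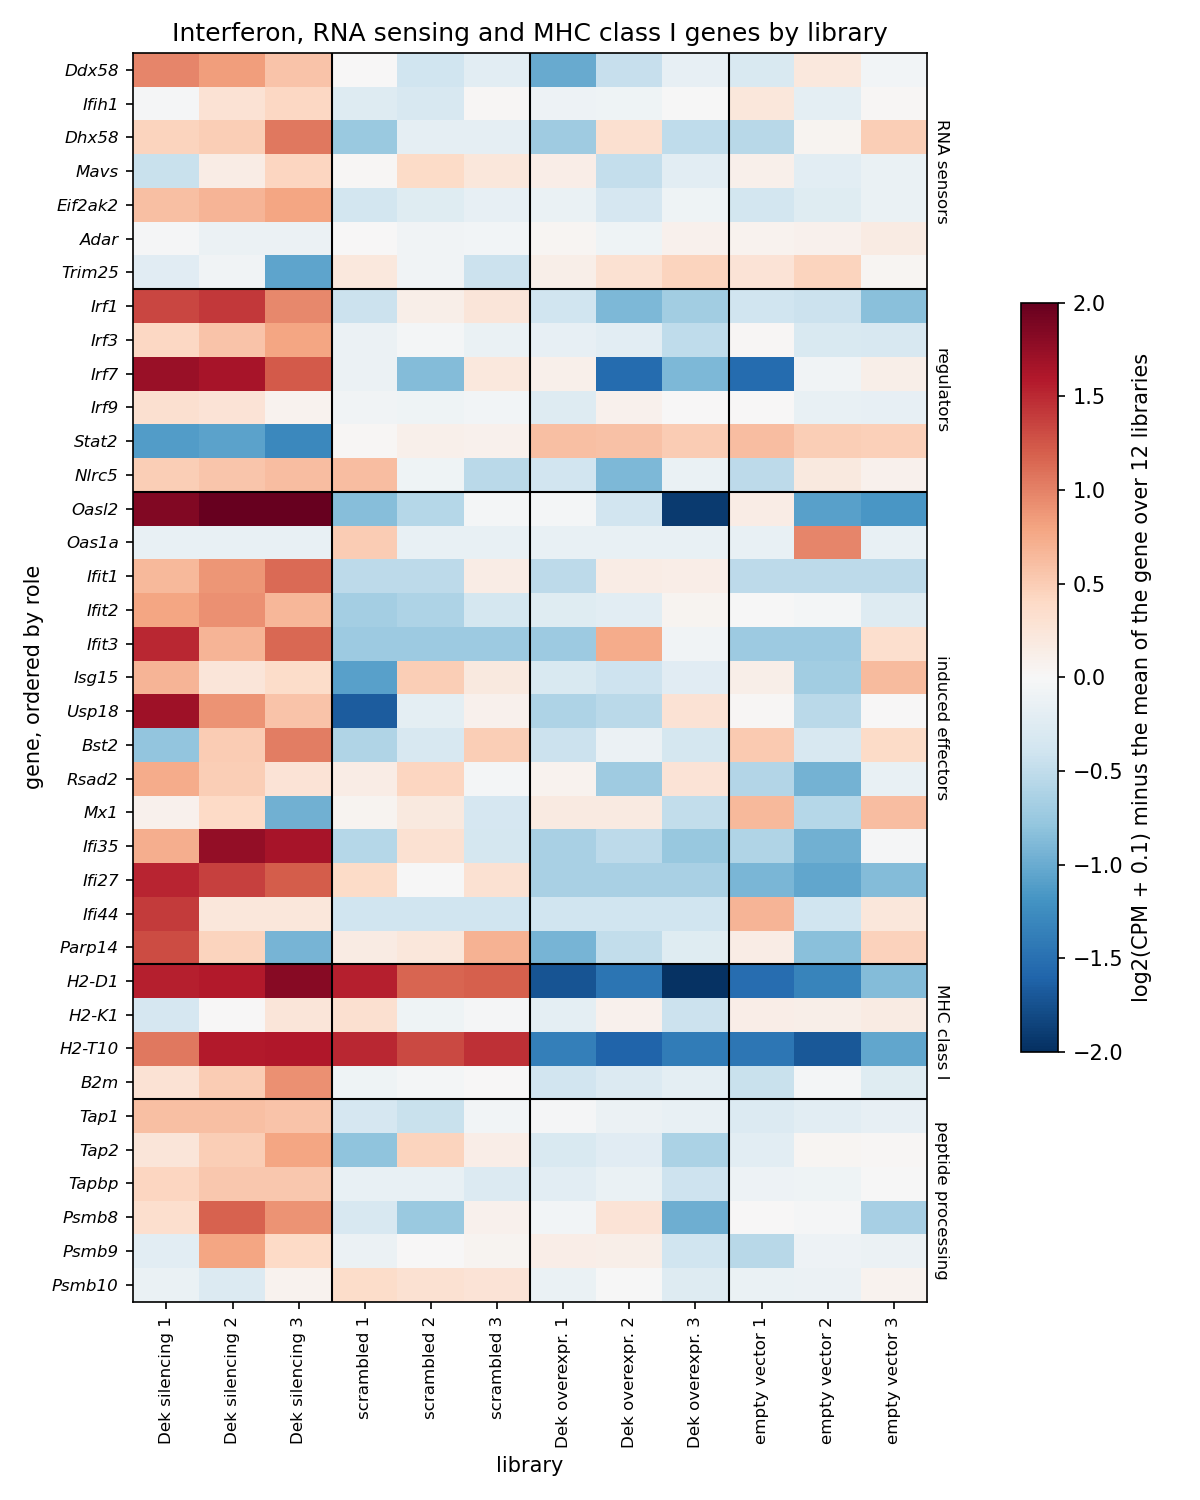
Map of the 37 genes (rows, by role) in 12 libraries (columns). Colour gives log2(CPM + 0.1) minus the mean of the gene over the 12 libraries, with colours capped at -2 and 2. The 3 Dek silencing libraries stand high for Oasl2, Irf1, Irf7 and Ifi27 and low for Stat2, while H2-D1 and H2-T10 are high in all 6 hairpin libraries.

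Silencing of Dek was accompanied by higher RNA of many of these genes. Of the 30 members tested, 15 rose and 2 fell relative to scrambled cultures (edgeR quasi-likelihood test, adjusted p below 0.05), where 26.2% of all 14232 genes tested rose and 28.5% fell. The median log2 fold change of the members was 0.57, beside -0.0011 over all genes tested. Irf7, Oasl2, Bst2, Rsad2 and Ifi35 passed the filter on low counts only in fits that held silenced libraries, so their part in these counts, and in those of the other comparisons with silenced libraries, is not support. Among the 25 members tested in all 6 comparisons, 12 rose and 2 fell, with a median of 0.49. No member passed the test between Dek overexpression and empty vector cultures, as described further on.

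Among the sensors, 3 of 7 rose and none fell, where 26.2% of all genes tested rose and 28.5% fell. Eif2ak2 encodes PKR, the kinase that halts translation on binding double-stranded RNA. It had 16.1, 17.1 and 18.4 CPM in Dek silencing libraries, against 8.17, 8.99 and 9.47 CPM in scrambled libraries. These groups did not overlap, and the silenced libraries also lay above the Dek overexpression libraries (9.63, 8.35 and 10.0 CPM) and the empty vector libraries (8.21, 9.0 and 9.65 CPM). The log2 fold change of Eif2ak2 was 0.94 (SE 0.11, adjusted p = 1.9e-05).

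Ddx58 encodes RIG-I, the helicase that senses short double-stranded RNA ends. Its levels were 4.33, 3.92 and 3.24 CPM in Dek silencing libraries, against 2.16, 1.61 and 1.83 CPM in scrambled libraries, a log2 fold change of 1.01 (SE 0.21, adjusted p = 0.0016). The lowest silenced library was still above the highest of the other 9, which was an empty vector library at 2.49 CPM. Dhx58, whose product LGP2 modulates RIG-I and MDA5, rose at low levels, with 1.42, 1.47 and 2.23 CPM against 0.567, 0.893 and 0.888 CPM in scrambled libraries (log2 fold change 1.12, SE 0.32, adjusted p = 0.011). Without Dek silencing library 3 the Dhx58 log2 fold change was 0.87 and no longer passed. The empty vector libraries reached 1.47 CPM for Dhx58, within the range of the silenced libraries.

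The remaining sensors did not pass. Ifih1, which encodes MDA5, a sensor of long double-stranded RNA, had a log2 fold change of 0.46 (SE 0.35), and Mavs, the adaptor on mitochondria, -0.13 (SE 0.22). Trim25, a ubiquitin ligase acting on RIG-I, had -0.36 (SE 0.35). Adar edits adenosine to inosine in double-stranded RNA, and its 239, 224 and 222 CPM in Dek silencing libraries overlapped the 243, 231 and 234 CPM of scrambled libraries (log2 fold change -0.06, SE 0.05).

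Regulators moved in opposite directions. Irf1 and Irf3 are transcription factors that act on interferon and MHC class I genes. Irf1 had 4.27, 4.52 and 3.30 CPM in Dek silencing libraries, against 1.19, 1.79 and 1.95 CPM in scrambled libraries (log2 fold change 1.28, SE 0.24, adjusted p = 7.3e-04). Irf3 had 12.9, 14.4 and 16.7 CPM, against 8.91, 9.35 and 8.76 CPM (log2 fold change 0.70, SE 0.12, adjusted p = 5e-04). For these 2 genes the silenced libraries lay above every library of the other 3 groups. Irf7, which amplifies the interferon response, was counted 14, 15 and 11 times in Dek silencing libraries, against 3, 1 and 4 times in scrambled libraries, a log2 fold change of 2.20 (SE 0.52, adjusted p = 0.0034) that rests on few reads.

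Stat2, a partner of IRF9 in the factor that interferon activates, went the other way. It fell to 18.5, 19.1 and 16.3 CPM in Dek silencing libraries, against 40.8, 42.9 and 42.4 CPM in scrambled libraries, a log2 fold change of -1.24 (SE 0.08, adjusted p = 1.8e-07). The groups were far apart relative to their spread, and scrambled libraries in turn lay below the no-hairpin libraries (55.6 to 61.4 CPM). Irf9 did not pass, with 12, 11.7 and 10.2 CPM in Dek silencing libraries and 9.13, 9.11 and 9.29 CPM in scrambled libraries (log2 fold change 0.28, SE 0.12, adjusted p = 0.057). Nlrc5, the transactivator of MHC class I genes, had a log2 fold change of 0.49 (SE 0.32). The call for Irf9 was gained in 5 of 15 alternatives (log2 fold changes 0.28 to 0.38), among them without Dek silencing library 3 (0.35), and that for Nlrc5 without scrambled library 1 (0.90).

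**Figure D2:**
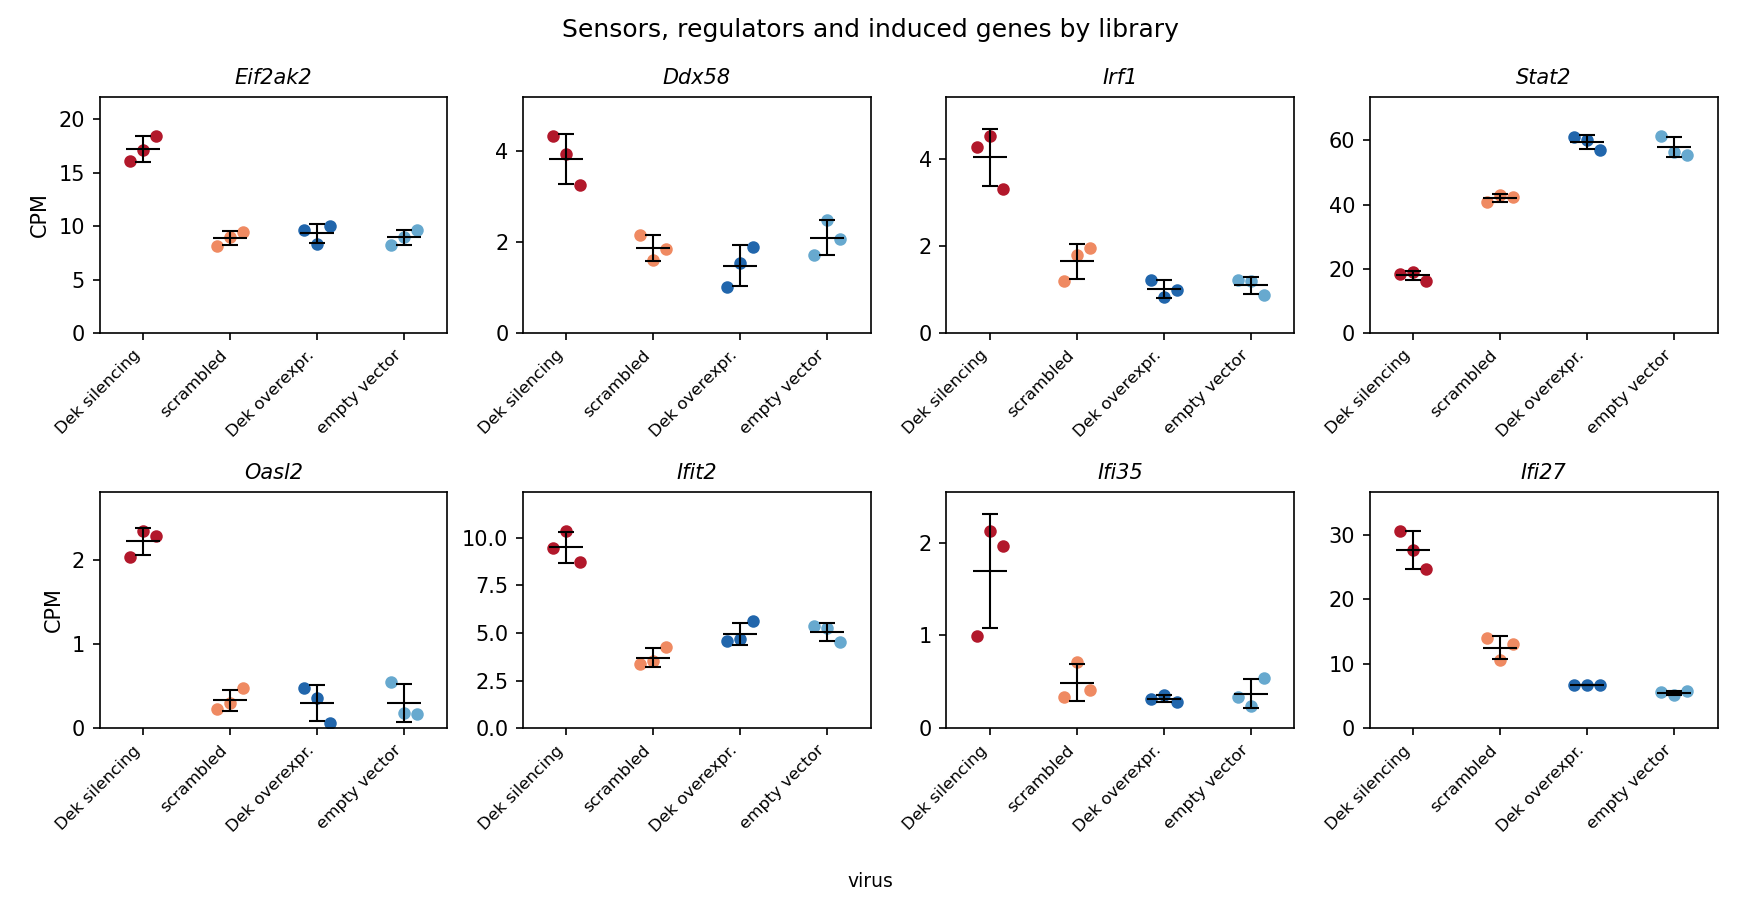
CPM (linear axes from 0) of 8 sensors, regulators and induced genes in each library (points), with the mean and SD of 3 libraries (bars), for Dek silencing, scrambled, Dek overexpression (overexpr.) and empty vector cultures. The Dek silencing libraries are the highest for all but Stat2, whose 3 values from 16.3 to 19.1 CPM are the lowest, and Ifi27 is also higher in scrambled than in empty vector libraries.

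Of the 14 interferon-induced genes, 7 had enough reads to test, and 4 of these rose, where 26.2% of all genes tested rose. Oasl2, Bst2, Rsad2 and Ifi35 passed the filter on low counts only in fits with silenced libraries, so their results are not support. Among the 3 tested in every comparison, Ifit2 and Ifi27 rose and Mx1 did not pass. Ifit2, an antiviral protein that binds RNA, had 9.46, 10.3 and 8.72 CPM in Dek silencing libraries, against 3.35, 3.51 and 4.26 CPM in scrambled libraries (log2 fold change 1.34, SE 0.15, adjusted p = 1.4e-05). Ifi27, a small hydrophobic protein and a classic interferon-induced transcript, had 30.6, 27.6 and 24.8 CPM, against 14.0, 10.5 and 13.1 CPM (log2 fold change 1.13, SE 0.12, adjusted p = 7.2e-06). All 3 silenced libraries lay above the remaining 9 for Ifit2 and for Ifi27.

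Oasl2, a member of the oligoadenylate synthetase family, had the greatest fold change of the members tested. It was at 2.04, 2.34 and 2.29 CPM in Dek silencing libraries, against 0.227, 0.298 and 0.473 CPM in scrambled libraries, a log2 fold change of 2.71 (SE 0.33, adjusted p = 2.8e-05). No other library exceeded 0.555 CPM. Ifi35 had 0.989, 2.12 and 1.97 CPM, against 0.340, 0.715 and 0.414 CPM (log2 fold change 1.78, SE 0.40, adjusted p = 0.0027), with silenced library 1 below the other two.

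Some well-known induced genes did not pass. Bst2 encodes tetherin, which holds budding virus at the cell surface, and had 0.185, 0.599 and 0.904 CPM in Dek silencing libraries, overlapping the 0.227, 0.298 and 0.592 CPM of scrambled libraries (log2 fold change 0.61, SE 0.58). Rsad2, encoding the antiviral enzyme viperin, had a log2 fold change of 0.34 (SE 0.35). Mx1, a transcribed pseudogene in RefSeq, had -0.07 (SE 0.40).

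The other 7 members, Oas1a, Ifit1, Ifit3, Isg15, Usp18, Ifi44 and Parp14, were too low to test in every comparison. Ifit3 had 14 rounded counts over the 3 Dek silencing libraries and 0 over the scrambled libraries. That is a ratio of 4.49 to a set floor of 3 counts over the group (lower limit of the 95% exact conditional interval 3.19). Ifi44 likewise had 6 counts against 0, a ratio of 1.92 to that floor (lower limit 1.13), with 4 of the 6 in 1 library. The empty vector libraries held 3 counts of Ifi44. Usp18, the protease that removes ISG15 from proteins, had 31 counts against 7, a ratio of 4.26 (95% exact conditional interval 1.84 to 11.5, covering counting error only).

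Ifit1 had 9 counts in Dek silencing libraries against 1 in scrambled libraries, a ratio of 8.66 (interval 1.20 to 379). Isg15, the ubiquitin-like protein, had 27 against 18, a ratio of 1.44 (interval 0.766 to 2.78), and Parp14 had 24 against 21, a ratio of 1.10 (interval 0.586 to 2.08). For Isg15 and Parp14 the count cannot separate the groups at this depth. The Ifit1 interval lies above 1 but is wide and covers counting error only. Oas1a was counted 0 times in Dek silencing libraries and 1 time in scrambled libraries. In the edgeR fit without a filter on low counts, Ifit3 (adjusted p = 0.0066) and Usp18 (adjusted p = 0.025) were also called higher. Ifit1 (adjusted p = 0.096) and Ifi44 (adjusted p = 0.084) did not pass in that fit.

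The MHC class I genes did not move together. B2m, the light chain shared by all class I molecules, had 33.3, 38.9 and 51.4 CPM in Dek silencing libraries, against 25.6, 26.4 and 27.3 CPM in scrambled libraries (log2 fold change 0.63, SE 0.15, adjusted p = 0.0063). The heavy chain gene H2-D1 had 44.8, 45.6 and 54.1 CPM, against 44.8, 34.0 and 35.1 CPM (log2 fold change 0.33, SE 0.12, adjusted p = 0.034). Its lowest silenced and highest scrambled library nearly met. The H2-D1 call was lost without Dek silencing library 2 (log2 fold change 0.37) or 3 (0.24), without scrambled library 2 (0.26) or 3 (0.27), and after adjusting for the GC content and length of transcripts (0.19).

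H2-K1, the other classical heavy chain, had 9.40, 11.9 and 14.1 CPM in Dek silencing libraries and 14.9, 11.3 and 11.7 CPM in scrambled libraries, with a log2 fold change of -0.10 (SE 0.16). H2-T10, a class I gene of the T region annotated as a transcribed pseudogene in RefSeq, had a log2 fold change of -0.0031 (SE 0.16, adjusted p = 0.99). Class I genes are a family of near-identical copies, and the division of shared reads among H2-D1, H2-K1 and H2-T10 by the authors' counting is uncertain. The same holds for the Ifit and Oas families.

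Of the 6 genes of peptide supply, 3 rose, 1 fell and 2 did not pass, where 26.2% of all genes tested rose and 28.5% fell. Tap1, a chain of the peptide transporter, had 26.0, 26.0 and 25.6 CPM in Dek silencing libraries, against 13.6, 12.6 and 16.5 CPM in scrambled libraries (log2 fold change 0.85, SE 0.10, adjusted p = 2.9e-05). Tapbp, tapasin, which bridges the transporter and class I, had 41.9, 45.3 and 45.3 CPM, against 28.2, 28.2 and 25.9 CPM (log2 fold change 0.68, SE 0.08, adjusted p = 1.3e-05). In these 2 genes the silenced libraries were above all 9 others.

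The 3 catalytic subunits of the immunoproteasome, which replace those of the standard proteasome, differed. Psmb8 rose at a low level, with 0.866, 1.63 and 1.33 CPM in Dek silencing libraries, against 0.511, 0.357 and 0.710 CPM in scrambled libraries (log2 fold change 1.27, SE 0.38, adjusted p = 0.014), and was lost without Dek silencing library 2 (1.05) or scrambled library 2 (1.06). Psmb10 fell to 31.0, 28.3 and 35.8 CPM, against 43.9, 42.5 and 41.1 CPM (log2 fold change -0.44, SE 0.09, adjusted p = 0.0014). Psmb10 in silenced libraries overlapped the empty vector libraries (31.0 to 35.7 CPM), while the scrambled libraries stood above both. After adjusting for GC content and length, however, Psmb10 was lower in Dek silencing than in empty vector cultures (-0.45, adjusted p = 4.7e-04).

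Psmb9 had a log2 fold change of 0.41 (SE 0.25, adjusted p = 0.19) and passed in a leave-one-out only without Dek silencing library 1 (0.64). Tap2, the other transporter chain, had 0.52 (SE 0.29, adjusted p = 0.15). Tap1 and Psmb9 are neighbours in opposite orientation on chromosome 17, and their RefSeq promoter windows share 275 bases (chr17:34187306-34187580). Tap1 passed the test and Psmb9 did not, though the difference between these genes was not tested.

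Set against the promoters, the response element core stood in 3 of the 13 members with a promoter that rose (B2m, Ddx58 and Eif2ak2) and in 1 of the 2 that fell (Stat2). It also stood in 3 of 9 that did not pass (Bst2, Ifih1 and Rsad2) and in 4 of 5 that were too low to test (Ifit1, Ifit3, Isg15 and Oas1a). These counts describe the windows searched. The 250 bases before the start are printed for B2m, which rose, and Stat2, which fell, as examples that hold the match (in capitals) before the start.
B2m (chr2:122147437-122147686, plus strand): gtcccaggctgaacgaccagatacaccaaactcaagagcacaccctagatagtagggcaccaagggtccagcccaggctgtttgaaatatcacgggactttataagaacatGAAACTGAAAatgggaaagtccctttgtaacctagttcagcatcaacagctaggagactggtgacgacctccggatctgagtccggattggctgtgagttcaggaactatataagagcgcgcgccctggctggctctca
Stat2 (chr10:128270248-128270497, plus strand): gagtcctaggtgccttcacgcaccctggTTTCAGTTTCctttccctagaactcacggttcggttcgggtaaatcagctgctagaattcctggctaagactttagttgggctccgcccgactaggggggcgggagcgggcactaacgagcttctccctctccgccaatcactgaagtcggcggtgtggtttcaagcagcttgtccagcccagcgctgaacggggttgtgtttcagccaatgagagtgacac

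**Figure D3:**
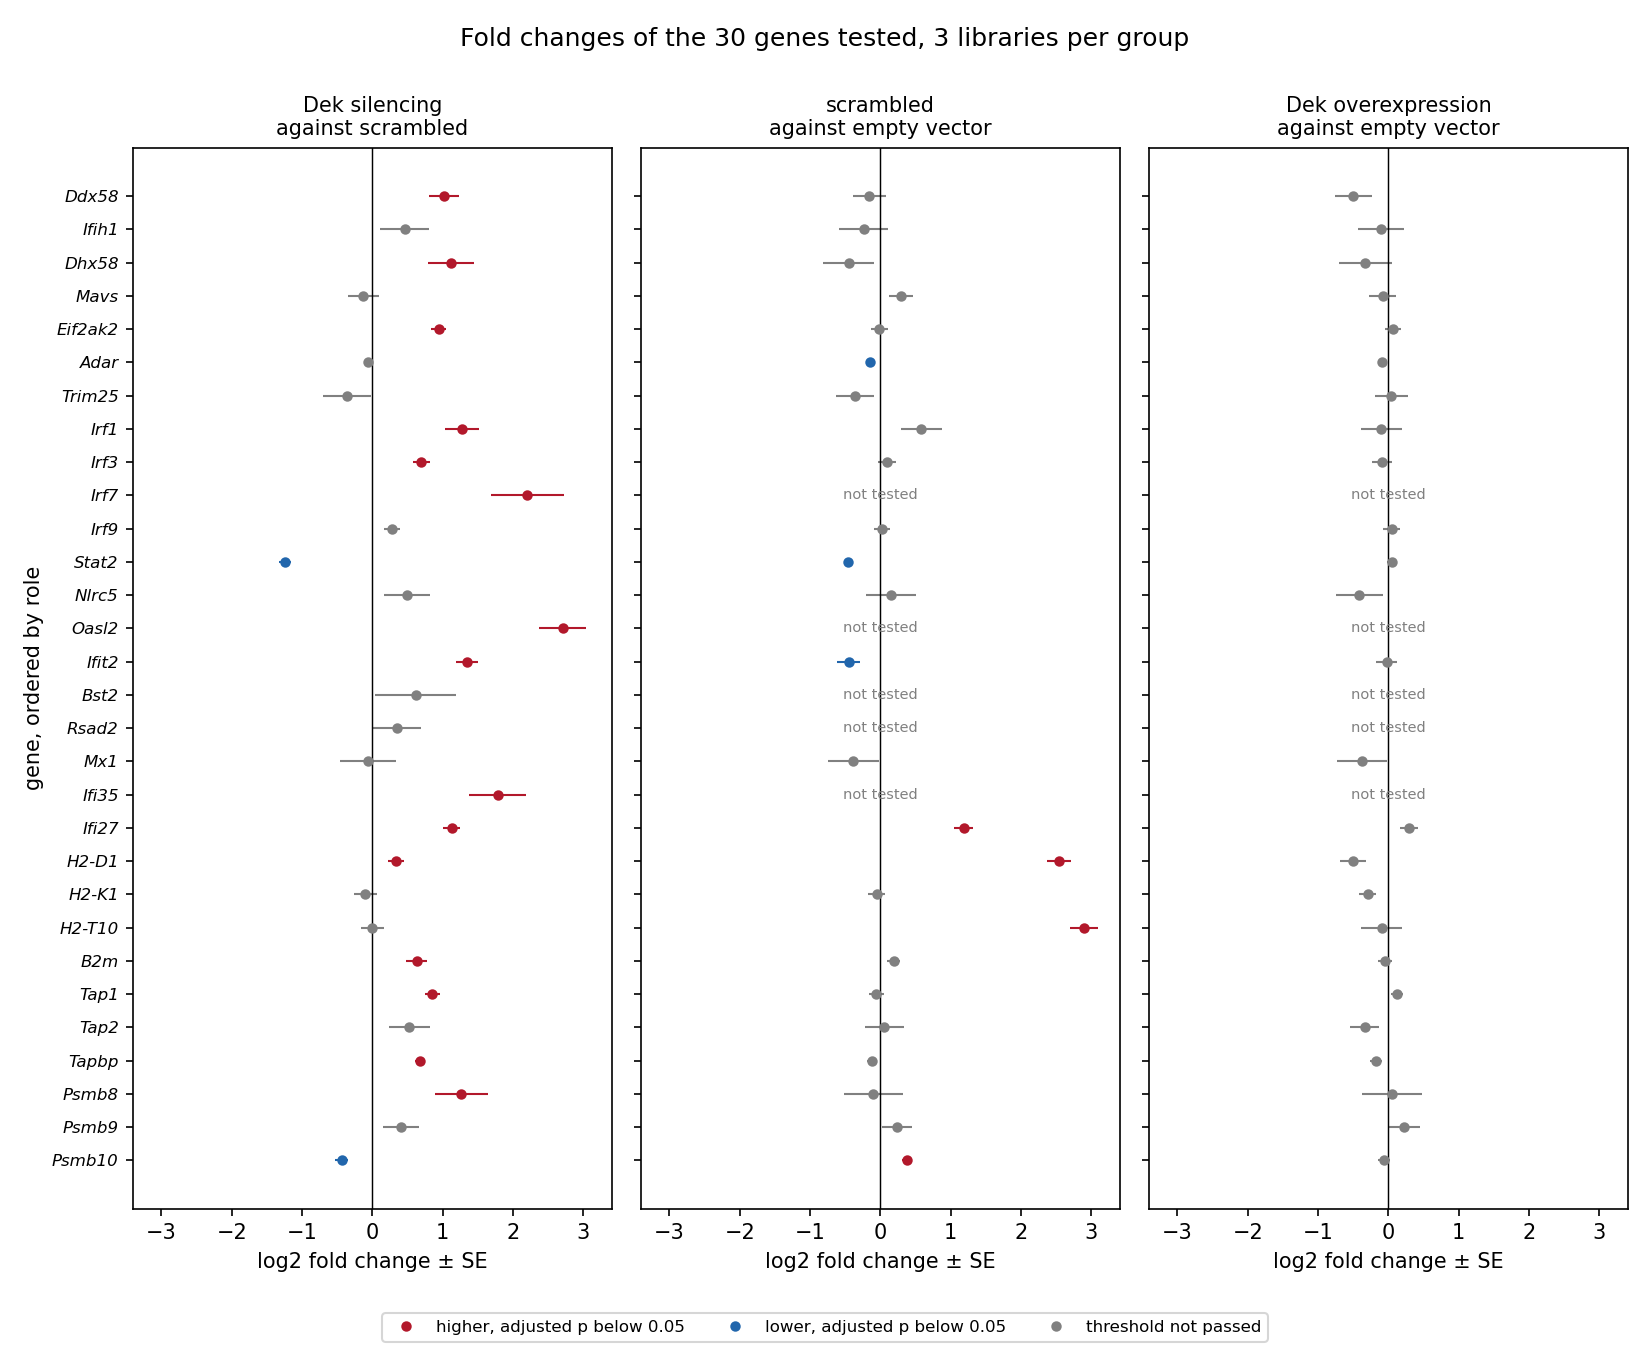
Log2 fold changes with SE (edgeR) of the 30 members tested in Dek silencing against scrambled, scrambled against empty vector and Dek overexpression against empty vector cultures, 3 libraries per group. Red and blue points passed an adjusted p of 0.05. The first panel holds 15 red and 2 blue points, the second 4 red and 3 blue, and the last none. Scrambled libraries are shared by the first and second panels and empty vector libraries by the second and last panels.

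Pathway genes outside the 37 members also moved in both directions. Of 139 such genes, 88 were tested between Dek silencing and scrambled cultures, and 32 rose and 12 fell, with a median log2 fold change of 0.22. Among all genes tested there, 26.2% rose and 28.5% fell. The receptor kinase Tyk2 rose by 0.58 on the log2 scale (SE 0.09, adjusted p = 1.6e-04), as did the interferon gamma receptor chains Ifngr1 (0.55) and Ifngr2 (0.22). Jak1 fell by 0.16. The interferon beta gene Ifnb1 had 0 counts in all 12 libraries, which limits only what this depth could detect.

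Further nucleic acid sensing genes were split, with 8 of 23 higher and 5 lower and a median log2 fold change of -0.04. Among all genes tested, the background for each list here, 26.2% rose and 28.5% fell. Ticam1, the adaptor of Toll-like receptor 3, had a log2 fold change of 1.41 and Rnaseh2c, a subunit of RNase H2, 0.99, while the double-stranded RNA binding protein Tarbp2 had -1.03 and the kinase Tbk1 -0.24. Among further interferon-induced genes, 10 of 29 rose and 2 fell, and the log2 fold changes were 1.28 for Ube2l6, the conjugating enzyme of ISG15, 1.59 for the GTPase Irgm1 and 2.86 for Ifi27l2a. Among further antigen presentation genes, 7 of 20 rose and 4 fell, with Tapbpl at 1.45 and the trimming peptidase Erap1 at 0.80, but the chaperone Calr at -0.87 and Rfx5 at -0.77. Each value passed the edgeR test.

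Some markers of cell types moved with silencing, where 26.2% of all genes tested rose and 28.5% fell. Of 5 oligodendrocyte markers tested, 4 rose and 1 fell, and their summed level was 82.9 to 90 CPM in Dek silencing libraries, against 30.9 to 41.6 CPM in scrambled libraries. Of 5 oligodendrocyte precursor markers, 3 rose (sums of 92.4 to 199 CPM against 62.2 to 110 CPM). None of 8 astrocyte markers passed. Of 6 pan-neuronal markers, 3 fell and 1 rose, and their sums did not overlap (5589 to 6154 CPM in Dek silencing libraries, against 6424 to 6685 CPM in scrambled libraries). Of 4 fibroblast and pericyte markers tested, 1, Rgs5, rose. The sums of this list reached 18.5 CPM in Dek silencing libraries, against 11.5 CPM in scrambled libraries, and did not overlap. However, the scrambled sums also lay below those of Dek overexpression (up to 20.3 CPM) and empty vector libraries (15.4 to 19.25 CPM). Between scrambled and empty vector cultures, 3 of 5 such markers tested were lower in scrambled cultures. The sums of Dek silencing libraries lay within the empty vector range. Of 8 microglia markers tested, none rose and 1, Aif1, fell (sums of 5.87 to 8.99 CPM against 6.67 to 10.5 CPM), and the defining markers P2ry12 and Tmem119 had at most 2 counts in any of these libraries. The part of these cells in the results for the members was not tested.

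Overexpression of Dek left no member past the threshold. Of 25 members tested between Dek overexpression and empty vector cultures, 0 rose and 0 fell, where 0.0071% of all 14089 genes tested rose (Dek itself) and 0% fell. At an unadjusted p below 0.05 there were 3 members, Ifi27 higher and H2-D1 and H2-K1 lower, where 6.6% of all genes tested passed, and DESeq2 and limma-voom also called 0. The median log2 fold change was -0.09, beside 0.0018 over all genes.

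Eif2ak2 had a log2 fold change of 0.07 (SE 0.12), Stat2 0.04 (SE 0.07), Tap1 0.12 (SE 0.09) and B2m -0.05 (SE 0.10). Ifi27 had 6.70, 6.75 and 6.72 CPM in Dek overexpression libraries, against 5.61, 5.09 and 5.78 CPM in empty vector libraries, groups that did not overlap (log2 fold change 0.29, SE 0.13, adjusted p = 0.72). H2-D1 had 4.52, 5.45 and 3.79 CPM, against 5.22, 6.04 and 8.29 CPM (log2 fold change -0.51, SE 0.19, adjusted p = 0.69). Across the 25 members the SE ran between 0.0586 for Adar and 0.427 for Psmb8, so small differences could be missed for genes of few reads. The other members were too low to test, and Oasl2 had 9, 6 and 1 counts in Dek overexpression libraries, against 10, 3 and 3 counts in empty vector libraries.

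The response to silencing differed from the response to overexpression for 15 of 30 members, tested as the difference between these 2 responses in a fit of all 12 libraries. It was higher for 13 and lower for 2, where 20.4% of all 14604 genes tested were higher and 22.7% lower. The median was 0.83, beside 0.01 over all genes. Among the 25 members tested in all comparisons, 11 were higher and 2 lower, with a median of 0.75. Eif2ak2 had a difference of 0.90 on the log2 scale (SE 0.16, adjusted p = 1.7e-04), Ifit2 1.39 (SE 0.21, adjusted p = 3.2e-05) and Tapbp 0.87 (SE 0.11, adjusted p = 5.2e-06), while Stat2 had -1.27 (SE 0.10, adjusted p = 1.6e-08). H2-T10 did not pass, at 0.11 (SE 0.32).

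The scrambled hairpin is the control of the Dek hairpin, and comparing it with the empty vector asks what the members do between a hairpin and a no-hairpin control. Of 25 members tested, 4 were higher and 3 lower in scrambled cultures, where 21.3% of all 14096 genes tested were higher and 21.8% lower. Neither share of the members exceeded that background, and their median log2 fold change was -0.01, beside 0.01 over all genes. A pair of class I genes had the greatest fold changes. This comparison shares the scrambled libraries with the silencing comparison and the empty vector libraries with the overexpression comparison.

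H2-D1 had 44.8, 34.0 and 35.1 CPM in scrambled libraries, against 5.22, 6.04 and 8.29 CPM in empty vector libraries, a log2 fold change of 2.54 (SE 0.17, adjusted p = 8.1e-06). H2-T10 had 8.40, 7.38 and 8.17 CPM, against 0.999, 0.829 and 1.36 CPM, a log2 fold change of 2.89 (SE 0.20, adjusted p = 2.5e-07). H2-K1, by contrast, had 14.9, 11.3 and 11.7 CPM, overlapping the 13.0, 12.9 and 13.4 CPM of empty vector libraries (log2 fold change -0.06, SE 0.12), and B2m, Tap1, Tap2, Tapbp, Psmb8 and Psmb9 did not pass. The heavy chain genes H2-K1 (33996012 to 34000619) and H2-D1 (35263094 to 35267497) lie on chromosome 17 (GRCm38.p6). So does H2-T10 (36115871 to 36121444), annotated as a transcribed pseudogene.

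Ifi27 was also higher, with 14.0, 10.5 and 13.1 CPM in scrambled libraries, against 5.61, 5.09 and 5.78 CPM in empty vector libraries (log2 fold change 1.19, SE 0.13, adjusted p = 1.5e-05). Psmb10 had a log2 fold change of 0.37 (SE 0.07, adjusted p = 7.2e-04), which dropped to 0.12 and did not pass after adjustment for GC content and length. Stat2 was lower, with 40.8, 42.9 and 42.4 CPM, against 61.4, 56.4 and 55.6 CPM (log2 fold change -0.46, SE 0.06, adjusted p = 5.2e-05). Adar (-0.15, SE 0.04) and Ifit2 (-0.45, SE 0.16) were lower too, but the Ifit2 call was lost without scrambled library 1 (-0.38) or 2 (-0.41) or empty vector library 1 (-0.40) or 2 (-0.42), and the Adar call without scrambled library 2 (-0.13) or empty vector library 3 (-0.12). With that same adjustment for GC content and length, Adar had -0.03 (adjusted p = 0.70) and Ifit2 -0.34 (adjusted p = 0.14).

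**Figure D4:**
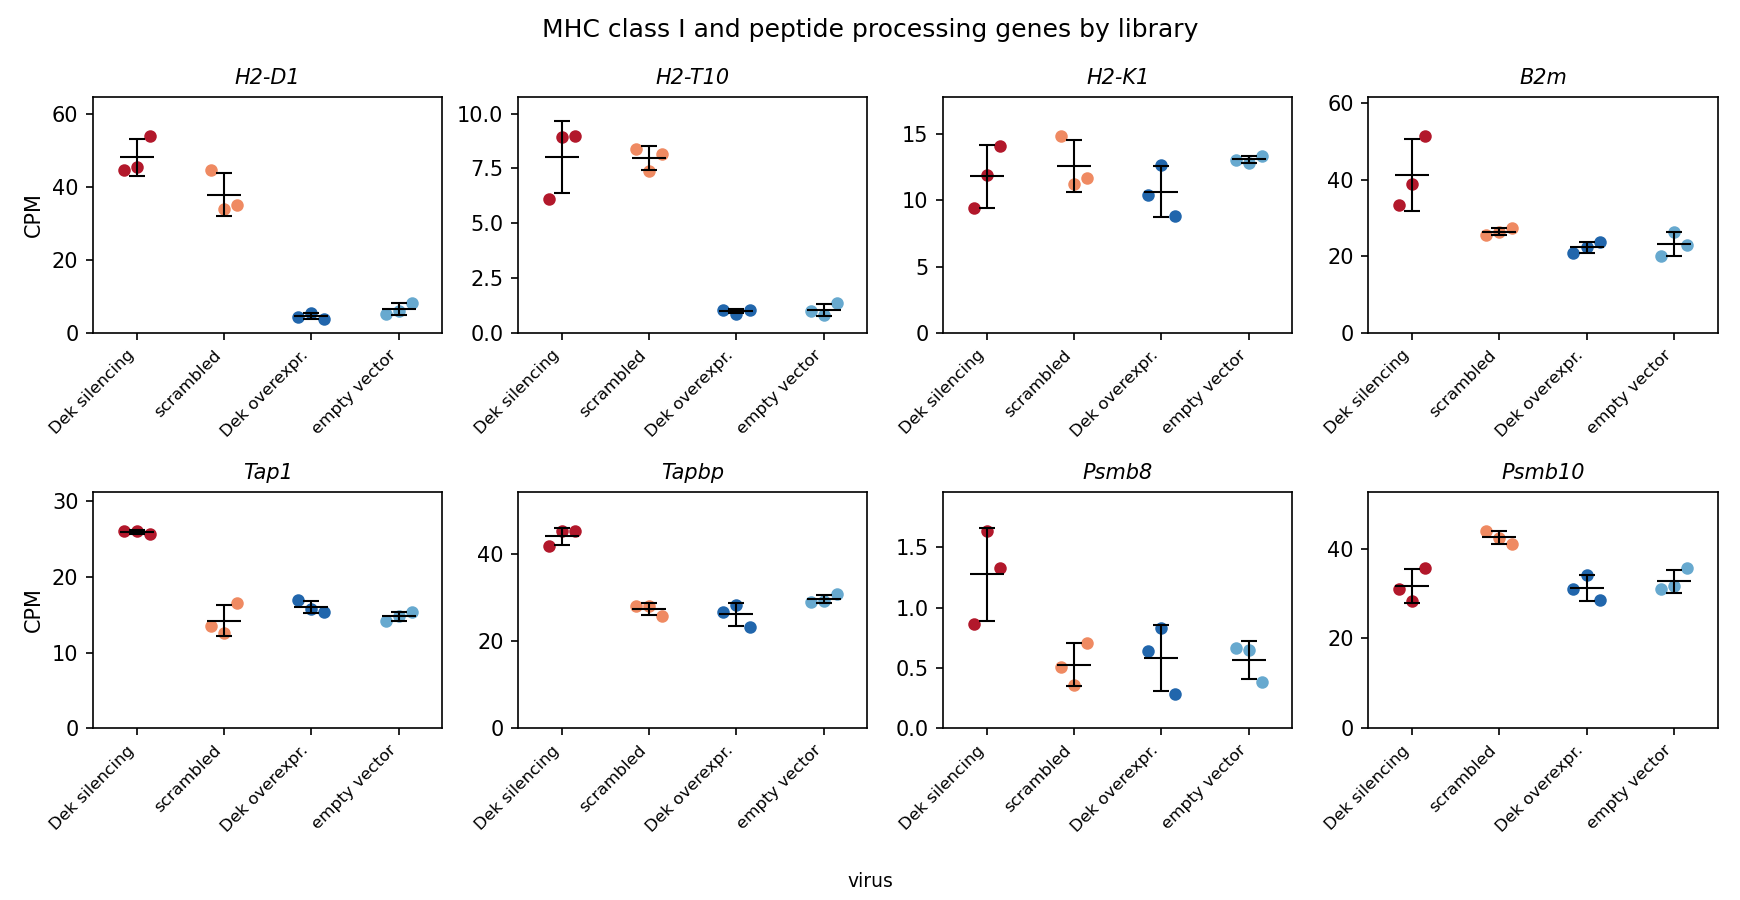
CPM (linear axes from 0) of 4 MHC class I genes and 4 peptide processing genes in each library (points), with the mean and SD of 3 libraries (bars), for Dek silencing, scrambled, Dek overexpression (overexpr.) and empty vector cultures. H2-D1 lies between 34.0 and 54.1 CPM in the 6 hairpin libraries and between 3.79 and 8.29 CPM in the others, H2-T10 shows the same split, and H2-K1 does not.

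Dek silencing against empty vector cultures, which differ in both the hairpin vector and Dek, gave 19 members higher and 2 lower of 30, where 34% of all 14292 genes tested were higher and 33.5% lower. The median log2 fold change was 0.74, beside 0.02 over all genes. Among the 25 members tested in all comparisons, 15 were higher and 2 lower, with a median of 0.66. The values were 2.89 (SE 0.15) for H2-D1, 2.91 (SE 0.24) for H2-T10, 2.33 (SE 0.11) for Ifi27, 1.88 (SE 0.23) for Irf1 and -1.68 (SE 0.08) for Stat2. Rsad2, at 0.989, 0.817 and 0.691 CPM in Dek silencing libraries against 0.333, 0.237 and 0.491 CPM in empty vector libraries, also passed (1.20, SE 0.39), but not without Dek silencing library 1 or empty vector library 1 or 2 (adjusted p up to 0.082 over the alternatives). Calls for Psmb9, Irf9, Tap2, Psmb8 and Adar were also lost in some alternatives, with adjusted p up to 0.23, 0.11, 0.1, 0.061 and 0.44. DESeq2 called 15 members higher and 2 lower.

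All 6 hairpin libraries were finally set against all 6 no-hairpin libraries, as the mean of Dek silencing and scrambled groups minus the mean of Dek overexpression and empty vector groups. Of 30 members tested, 18 were higher and 3 lower, where 33.5% of all 14604 genes tested were higher and 33.5% lower. The median was 0.38, beside 0.01 over all genes. Among the 25 members tested in all 6 comparisons, 14 were higher and 3 lower, with a median of 0.32. For most of the called members the hairpin and no-hairpin libraries overlapped. The mean of the hairpin groups also takes in changes shown by Dek silencing libraries alone. Between scrambled and empty vector cultures, 4 of 25 members were higher and 3 lower. There Eif2ak2 (-0.01), Tap1 (-0.06) and Irf3 (0.09) did not pass and Ifit2 was lower (-0.45), though each was called higher in this contrast. The 6 hairpin libraries lay apart from the 6 others for H2-D1 (log2 fold change 2.97, SE 0.12), H2-T10 (2.95, SE 0.15), Ifi27 (1.61, SE 0.09) and Stat2 (-1.09, SE 0.05).

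Eif2ak2 had 0.43 (SE 0.08) in this contrast, Irf1 1.28 (SE 0.18), B2m 0.54 (SE 0.10) and Trim25 -0.55 (SE 0.20). The Trim25 call was lost without Dek silencing library 3, scrambled library 3, Dek overexpression library 3 or empty vector library 2 (adjusted p up to 0.11 over the alternatives). In the fit of 2 groups of 6 libraries, which ignores the 4 groups, 10 members passed, and Ddx58, Ifit2, Tap1, Tap2, Tapbp, Psmb10, Nlrc5 and Adar were among those lost. Of the 139 further pathway genes, 92 were tested and 34 were higher and 18 lower, where 33.5% of all genes tested were higher and 33.5% lower. Ube2l6 had a log2 fold change of 0.89, the GTPase Iigp1 1.40, the DNA sensor Mb21d1 1.21, the class I gene H2-T22 0.93 and the myeloid regulator Irf8 1.49, while the kinase Jak2 had -0.62.

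Other measures also differed between the hairpin and the no-hairpin cultures, where 33.5% of all genes tested were higher and 33.5% lower. The Y-linked genes Ddx3y, Uty, Kdm5d and Eif2s3y were all lower, and summed to 52.8 to 61.7 CPM in Dek silencing and 57.4 to 58.1 CPM in scrambled libraries, against 93.0 to 112 CPM in Dek overexpression and 92.3 to 102 CPM in empty vector libraries. All 3 GABAergic neuron markers were higher, with sums of 2209 to 2571 CPM in Dek silencing and 2253 to 2403 CPM in scrambled libraries, against 1667 to 1749 CPM in Dek overexpression and 1833 to 1900 CPM in empty vector libraries. Of 4 excitatory neuron markers 2 were lower, with sums of up to 275 CPM in Dek silencing and up to 271 CPM in scrambled libraries, against 368 to 401 CPM in Dek overexpression and 355 to 383 CPM in empty vector libraries. The sums of these 3 lists did not overlap between hairpin and no-hairpin libraries.

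Of 8 microglia markers tested, 6 were higher and Aif1 lower in the hairpin cultures, against the same background shares, but their summed level overlapped. Between Dek overexpression and empty vector cultures, only 1 of the 12 listed markers passed the filter on low counts. The other markers tested passed it only in fits with hairpin libraries, so their part in this count is not support. The 11 microglia markers other than Aif1 summed to 4.57 to 7.68 CPM in Dek silencing and 3.16 to 6.75 CPM in scrambled libraries, against 2.34 to 5.21 CPM in Dek overexpression and 2.18 to 2.37 CPM in empty vector libraries.

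Aif1 lies on chromosome 17 at 35170986 to 35176083, near H2-D1, and had 1.22 CPM on average in Dek silencing and 3.66 CPM in scrambled libraries, against 9.75 CPM in Dek overexpression and 8.79 CPM in empty vector libraries. The part of microglia and of neuron types in the members' values was not tested. The hairpin, its promoter, the vector and the embryos that gave each set of cultures cannot be told apart in this design.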

How the data were processed

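RNA-seq of 12 libraries was analysed, 3 in each of 4 groups. The authors deposited estimated counts per gene, which are not whole for 38.6% of values, and their processing notes name Salmon, DESeq2 and the mm10 genome. Strand setting and annotation version are not given in the sources used here, so antisense and overlapping genes cannot be told apart. Counts were rounded and tested with edgeR 4.0.16 in R 4.3.3 (filterByExpr, TMM, robust quasi-likelihood F test) for the 2 groups compared, or for all 12 libraries in the hairpin contrast and the difference of responses. P-values were adjusted by Benjamini-Hochberg over all genes tested, with a threshold of 0.05, and SE is the log2 fold change divided by the root of F. The tests were checked on simulated counts. Depth ranged between 15679567 and 18933382 counts, so genes of few counts are imprecise. No pair of libraries of a group agreed within sampling noise (chi-square per degree of freedom 1.74 to 12.3).

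Coordinates are from RefSeq on GRCm38.p6, matched by gene identifier to all 37 members, as are promoters, matched to 29. Every member is named in the text. Of 139 further pathway genes, at most 4 per list and direction with the smallest adjusted p are named in 2 comparisons, and Ifnb1 was named after its values were seen. Members and lists were chosen with earlier results of these data known. The Y-linked list and the correction for GC content and length (splines, 5 degrees of freedom, 35 members with values) were added after the data were seen. Alternatives were DESeq2 1.42.0 and its size factors, limma-voom 3.58.1, library size only, no filter, at least 5 CPM in 3 libraries, other sample sets, a replicate block and leaving out each library.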

Additional observations from a re-analysis of the deposited data

Results flagged for a closer look

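For 15 members the response to Dek silencing (against scrambled) and the response to Dek overexpression (against empty vector) differed by the test of the difference itself (edgeR, all 12 libraries, adjusted p below 0.05). Of all 14604 genes tested in this way, 20.4% were higher and 22.7% lower. The difference on the log2 scale, silencing minus overexpression response, was 1.53 for Ddx58, 1.46 for Dhx58 and 0.90 for Eif2ak2 among the sensors. Among regulators it was 1.39 for Irf1, 0.81 for Irf3 and -1.27 for Stat2. Induced genes had 2.72 for Oasl2, 1.39 for Ifit2, 2.02 for Ifi35 and 0.85 for Ifi27. Oasl2 and Ifi35 passed the filter on low counts only in fits with silenced libraries, so their calls are not support. For antigen presentation it was 0.86 for H2-D1, 0.69 for B2m, 0.75 for Tap1, 0.87 for Tapbp and -0.35 for Psmb10. This call was lost for Ifi35 without empty vector library 3 (1.63), and for Oasl2 without empty vector library 1 (1.92). It was lost for Dhx58 without Dek silencing library 3, scrambled library 1, Dek overexpression library 1 or 3, or empty vector library 2 or 3 (1.14 to 1.45). Psmb10 lost it without library 1 or 2 of any group (-0.37 to -0.28) and with library size only (-0.27).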

How the results depend on the processing

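Counts of members called stayed within 1.5 times the reported count under most alternatives. The minimum of 5 CPM in 3 libraries, which tests fewer members, gave 11 for Dek silencing against scrambled (17 reported), 12 for Dek silencing against empty vector (21) and 12 for hairpin against no-hairpin viruses (21). The fit of 2 groups of 6 libraries gave 10 in the last. Correction for GC content and length, which has no value for H2-T10 and Mx1, gave 4 for scrambled against empty vector (7), and turned Psmb10 in the hairpin contrast to -0.14 (adjusted p = 0.031, against 0.20 reported). That was the only reversed value of the members. The cause was not tested. Leaving out each library gave 15 to 18 members for Dek silencing against scrambled, 0 for overexpression, 5 to 7 for scrambled against empty vector, 18 to 19 for Dek silencing against empty vector, 17 to 21 for the hairpin contrast and 13 to 15 for the difference of responses. In the hairpin contrast Irf7, Nlrc5, Rsad2, Tap2, Trim25 and Ifit2 each lost the call without 1 or more libraries left out singly, with adjusted p up to 0.11, 0.14, 0.075, 0.11, 0.11 and 0.24 over all alternatives.

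Libraries of different groups share replicate numbers, but same-numbered libraries did not deviate together in every pair (correlations 0.30, 0.13 and 0.070 for Dek silencing with scrambled, and -0.024, -0.055 and -0.023 for Dek overexpression with empty vector), so the numbers are not read as a pairing. With the replicate number as a block, Dek silencing gave 19 members against scrambled and 21 against empty vector, overexpression gave 0, the scrambled hairpin 5, the hairpin contrast 20 and the difference of responses 16. The depth limits what can be said of the 7 members too low to test.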
